A study of Mus musculus with 4 samples.

Results

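The cytosolic and mitochondrial heat shock proteins are molecular chaperones, which bind unfolded or newly made proteins and help them to fold. Among their genes, a set of 10 was taken by symbol from a table of 56748 genes, namely *Hspa1a*, *Hspa1b*, *Hspa8*, *Hsph1*, *Dnajb1*, *Hsp90aa1*, *Hspb1*, *Hspa9*, *Hspd1* and *Hspe1*. All 10 were found, and all 10 passed the filter on low counts that kept 15320 genes of the table. In these lung samples with breast cancer metastases, 5 of the 10 genes had higher levels in both treated samples than in both saline samples, as did 28.1% of all tested genes. They were the inducible HSP70 genes *Hspa1a* and *Hspa1b*, the HSP110 gene *Hsph1*, the small heat shock protein gene *Hspb1* and the mitochondrial co-chaperonin gene *Hspe1*. Their mean levels were between 1.57-fold and 1.94-fold those of saline. The largest, that of *Hsph1*, came mostly from a single treated sample, and *Hspa1a* was counted only 8 to 31 times per sample. The more abundant chaperone genes *Hspa8*, *Hsp90aa1* and *Hspd1* and the co-chaperone gene *Dnajb1* had overlapping groups. The mitochondrial HSP70 gene *Hspa9* was lower in both treated samples than in both saline samples, as were 28.8% of all tested genes. No gene of the whole table passed the adjusted threshold of edgeR's quasi-likelihood test, so none of these differences was called by it.

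The samples came from female BALB/cJ mice that were injected at 7 weeks of age, through the tail vein, with 4T1-FLuc, a mouse line of triple-negative breast cancer (TNBC) marked with luciferase, and then carried metastases in the lung. The saline group had 2 samples (PBS control in the labels), and the ADC/cmLumiOpto group had 2 samples. The ADC was CD276-DM1, an antibody-drug conjugate that carries mertansine, a microtubule inhibitor, to cells with CD276. The series' design text gives 3 weeks of treatment, and the study's methods give a loss of body weight as the endpoint. The labels give the ADC's dose as 16 mg/kg and the study's methods as 8 mg/kg. The gene therapy cmLumiOpto was a vector under the cancer-selective *cfos* promoter, carried by adeno-associated virus in antibody-tagged exosomes, that places a light-gated channel in the inner mitochondrial membrane and depolarizes mitochondria once a luminescent substrate is given. The labels write its part of the treatment as cmLumi-Olap, a name the study's methods do not use. They describe tumor cells from the lung, while the methods describe dissociated lung tissue in which host cells remain. Nothing in the labels ties a sample to 1 animal, so p-values measure the spread between these samples. The comparison asks how transcription in metastatic lungs differed after the combined treatment. In bulk samples such as these, fewer cells of a type and less RNA per cell cannot be told apart.

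Heat shock genes are known as targets of heat shock factors, which bind repeats of a short GAA unit in their promoters when unfolded proteins accumulate. The HSP70 cycle runs with a J-domain protein that loads the client and an exchange factor that releases it, and HSP90 takes over clients such as kinases and receptors. In mitochondria, mortalin pulls in imported proteins, and the HSP60 barrel with its HSP10 lid folds them. Cancer cells are known for high levels of several of these chaperones.

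Promoter sequences of RefSeq (build GRCm38.p6, 250 bases before and 50 bases after each start site) were found for 7 of the 10 genes. *Hspa8*, *Hspa9* and *Hsp90aa1* were not matched. In all, 3 arrangements of the GAA unit were searched on both strands, and in what follows the matches are in capitals. The pair GAANNTTC was held by 7.86% of all 32851 promoters, the pair TTCNNGAA by 8.52%, and the triple GAANNTTCNNGAA or TTCNNGAANNTTC, which contains both pairs, by 0.603%. The sequences of the 4 genes below are shown because both treated samples lay above both saline samples for each of them. For *Hspa1b* and *Hspb1* the 250 bases before the start site are given (chr17:34959239-34959488, minus strand, and chr5:135887669-135887918, plus strand). For *Hspe1* and *Hsph1* 30 bases around the triple are given (chr1:55088053-55088082, plus strand, and chr5:149636279-149636308, minus strand).
Hspa1b: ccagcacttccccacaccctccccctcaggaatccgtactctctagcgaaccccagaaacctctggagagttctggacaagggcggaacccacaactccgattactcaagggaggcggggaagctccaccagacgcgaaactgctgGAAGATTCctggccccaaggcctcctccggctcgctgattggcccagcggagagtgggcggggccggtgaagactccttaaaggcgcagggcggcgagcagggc
Hspb1: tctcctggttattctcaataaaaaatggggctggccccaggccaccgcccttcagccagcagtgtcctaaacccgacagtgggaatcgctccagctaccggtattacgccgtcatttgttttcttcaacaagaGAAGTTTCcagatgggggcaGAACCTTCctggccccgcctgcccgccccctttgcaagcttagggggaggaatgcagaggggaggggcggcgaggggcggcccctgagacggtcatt
Hspe1: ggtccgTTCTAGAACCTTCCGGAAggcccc
Hsph1: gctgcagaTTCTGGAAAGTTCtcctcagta

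*Hspa1b* held 1 pair and *Hspb1* held 2. In *Hspe1*, 2 overlapping triples began 89 bases upstream of the start site. *Hspe1* and *Hspd1* are read from opposite strands of the same stretch, and 285 bases of the *Hspe1* window are also in 1 of the 2 promoter windows of *Hspd1*, where the same triples lie before its start site. The other *Hspd1* window, from a start site farther upstream, held no match, and the triples lie after that start site. In *Hsph1* the triple began 15 bases after the second of its start sites. Both *Hsph1* windows also held the pair TTCTCGAA before the start site, outside the stretch shown. The *Hspa1a* window differed from that of *Hspa1b* at 4 of 300 positions and held the same pair. The *Dnajb1* windows held no match. A match is a stretch of letters and not a measured binding site.

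The 4 libraries had between 15263375 and 19675436 counts, and levels are given as CPM (counts relative to the library size) scaled by the TMM method, which sets the libraries to a common total through the bulk of their genes. A number of 3 counts, taken as the floor of detection, correspond to between 0.152 and 0.197 CPM and cover counting error only. The 10 genes together took 0.380% and 0.372% of all counts in saline and 0.469% and 0.357% in ADC/cmLumiOpto replicates 1 and 2. The exact (Clopper-Pearson) 95% intervals of the treated shares were 0.466% to 0.472% and 0.355% to 0.360%, which cover counting error only. The saline shares lay between the treated ones. *Hspa8* alone supplied between 48.5% and 52.5% of the counts of the 10 genes.

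Among the cytosolic HSP70 genes, *Hspa1b* (ENSMUSG00000090877), which encodes an inducible HSP70, was higher after treatment. Its level was 39.9 and 29.1 CPM in the saline samples and 58.7 and 56.5 CPM in the ADC/cmLumiOpto samples. Both treated samples lay above both saline samples and close to each other. The log2 fold change was 0.74 (SE 0.20, 95% interval 0.26 to 1.22). The adjusted p over all genes was 0.126 by edgeR's quasi-likelihood test. The adjusted p was 0.0494 in edgeR's exact test and 0.0364 in DESeq2. *Hspa1b* was the only one of the 10 genes below 0.05 in both tests, which called 7.64% and 8.69% of all tested genes.

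*Hspa1a* (ENSMUSG00000091971), the neighbouring copy that encodes a near-identical HSP70, was counted at a far lower level. It was counted 18 and 8 times in saline and 31 and 26 times after treatment, or 1.13, 0.539, 1.76 and 1.27 CPM. The groups did not overlap, but the log2 fold change of 0.85 (SE 0.60, 95% interval -0.59 to 2.28) had an adjusted p of 0.423 by edgeR's quasi-likelihood test. It was 1.46 without saline replicate 1 and 0.43 without saline replicate 2. *Hspa1a* took between 1.82% and 2.91% of the counts of both copies together. Of all stretches of 100 bases in its GENCODE transcripts, 56.5% also occur in another gene's transcripts, mostly those of *Hspa1b*. For *Hspa1b* that share was 49.9%, so the split between the copies is uncertain. With both copies summed into 1 gene, the log2 fold change was 0.74 (adjusted p = 0.126).

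*Hspa8* (ENSMUSG00000015656) encodes HSC70, the constitutive chaperone that most cells carry in large amounts. Its level was 1853 and 1956 CPM in the saline samples and 2492 and 1769 CPM in the treated samples. One treated sample lay above and the other below both saline samples, so the groups overlapped. The log2 fold change was 0.16 (SE 0.21, 95% interval -0.35 to 0.67, adjusted p = 0.676 by edgeR's quasi-likelihood test). Without ADC/cmLumiOpto replicate 1 the estimate was -0.10. Per length, the inducible copies together stood at 0.0339 and 0.0232 of *Hspa8* in saline and at 0.0371 and 0.050 after treatment. Of the 100-base stretches of *Hspa8* transcripts, 28.5% also occur in other genes.

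**Figure D1:**
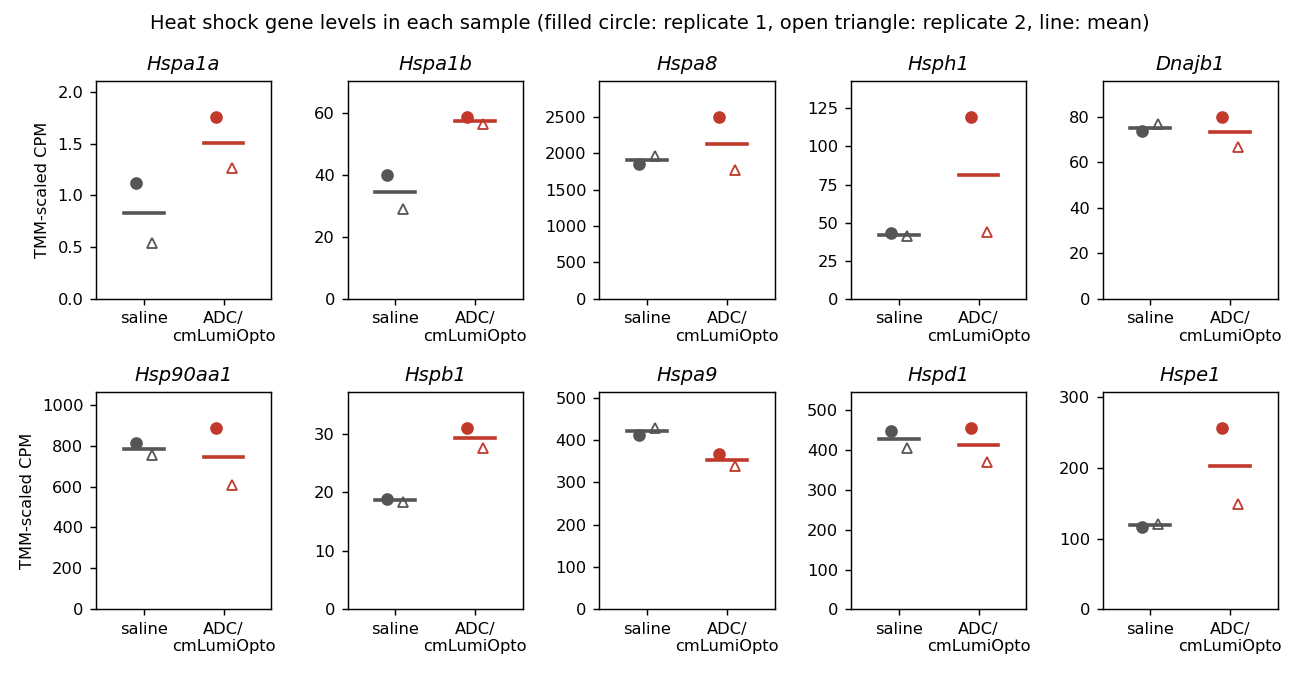
Levels of the 10 heat shock genes in each sample, as TMM-scaled CPM on a linear axis from 0, with 1 panel per gene. Filled circles are replicate 1, open triangles replicate 2 and lines the mean of the 2 samples of a group. In *Hspa1a*, *Hspa1b*, *Hsph1*, *Hspb1* and *Hspe1* both treated samples lie above both saline samples, in *Hspa9* both lie below, and in every panel replicate 1 is the higher treated sample.

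The partners of cytosolic HSP70 differed from each other. *Hsph1* (ENSMUSG00000029657) encodes HSP110, an exchange factor that releases clients from HSP70. Its level was 42.9 and 41.0 CPM in the saline samples and 119 and 43.7 CPM in the treated samples. The high mean of the treated group came from replicate 1, which was 2.72-fold above replicate 2, while replicate 2 lay just above saline. The log2 fold change was 0.96 (SE 0.43, 95% interval -0.07 to 1.98, adjusted p = 0.238 by edgeR's quasi-likelihood test). It was 0.06 without ADC/cmLumiOpto replicate 1 and 1.50 without replicate 2. *Dnajb1* (ENSMUSG00000005483) encodes HSP40, the J-domain protein that loads clients onto inducible HSP70. Its values were close together, at 73.6 and 76.7 CPM in saline and 79.7 and 66.8 CPM after treatment, with treated values on both sides of saline. Its log2 fold change was -0.04 (95% interval -0.45 to 0.37), and its sign turned under other scalings.

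*Hsp90aa1* (ENSMUSG00000021270) encodes the stress-inducible cytosolic HSP90, which matures kinases and hormone receptors. It measured 811 and 755 CPM in the saline samples and 886 and 605 CPM in the treated samples. The treated samples again enclosed the saline samples, and the log2 fold change was -0.07 (SE 0.22, 95% interval -0.59 to 0.45). Leaving out ADC/cmLumiOpto replicate 1 gave -0.37 and leaving out replicate 2 gave 0.17. Set against *Hsp90ab1*, the constitutive HSP90, its ratio per length was 0.146 and 0.122 in saline and 0.179 and 0.161 after treatment. *Hsp90ab1* itself was at 4231 and 4717 CPM in saline and at 3781 and 2876 CPM after treatment (log2 fold change -0.43, adjusted p = 0.260 by edgeR's quasi-likelihood test), so the ratio was higher beside a lower denominator. Of the 100-base stretches of *Hsp90aa1* transcripts, 38% also occur in other genes.

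*Hspb1* (ENSMUSG00000004951) encodes HSP27, a small heat shock protein that holds unfolded clients without ATP. Its level was 18.9 and 18.4 CPM in the saline samples and 31 and 27.7 CPM in the treated samples. The samples within each group lay close together and the groups were apart. The log2 fold change was 0.65 (SE 0.19, 95% interval 0.20 to 1.11), and the adjusted p was 0.137 by edgeR's quasi-likelihood test. Leaving out any 1 sample gave values from 0.57 to 0.73, the narrowest such range among the 5 genes with higher treated levels. The estimate was smaller, 0.34, once a trend of each sample on gene length was removed. Of the 100-base stretches of *Hspb1* transcripts, 44% also occur in other genes, chiefly the pseudogene *Hsp25-ps1*.

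Of the 3 mitochondrial genes, 1 was higher in both treated samples, 1 had overlapping groups and 1 was lower in both treated samples. *Hspe1* (ENSMUSG00000073676) encodes HSP10, the lid of the mitochondrial chaperonin. Its level was 116 and 121 CPM in the saline samples and 256 and 148 CPM in the treated samples. Both treated samples lay above saline, by differing amounts. The log2 fold change was 0.77 (SE 0.27, 95% interval 0.13 to 1.41), and the adjusted p was 0.167 by edgeR's quasi-likelihood test. It was 0.33 without ADC/cmLumiOpto replicate 1 and 0.47 with the length trend removed.

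*Hspd1* (ENSMUSG00000025980) encodes HSP60, the barrel that *Hspe1* closes. It measured 448 and 404 CPM in the saline samples and 455 and 369 CPM in the treated samples, and the groups overlapped. Its log2 fold change was -0.05 (SE 0.18, 95% interval -0.47 to 0.38), and it ranged from -0.21 to 0.089 with a sample left out. The ratio of the pair was higher in both treated samples. Per length, *Hspe1* stood at 0.466 and 0.535 of *Hspd1* in the saline samples and at 1.01 and 0.721 in the treated samples. The genes lie head to head on chromosome 1 (*Hspd1* at 55116994 to 55127402 on the minus strand and *Hspe1* at 55127291 to 55130466 on the plus strand, as listed with the counts) and overlap by 112 bases. Whether the counting used strand is not given in the sources used here, so reads in the overlap may have gone to either gene. Of the 100-base stretches of *Hspd1* transcripts 23.4% also occur in other genes, and of those of *Hspe1* 10%. With their related copies summed in, the log2 fold changes were 0.82 for *Hspe1* and -0.08 for *Hspd1*.

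*Hspa9* (ENSMUSG00000024359) encodes mortalin, the mitochondrial HSP70 that draws imported proteins through the inner membrane. It was the only one of the 10 genes with both treated samples below both saline samples, as 28.8% of all tested genes had. Its level was 413 and 428 CPM in saline and 368 and 339 CPM after treatment. The log2 fold change of -0.25 (SE 0.15, 95% interval -0.62 to 0.12) had an adjusted p of 0.365 by edgeR's quasi-likelihood test and was -0.31 to -0.20 when any 1 sample was left out. None of the 100-base stretches of its transcripts occurs in another gene, as was also the case for *Hsph1* and *Dnajb1*.

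The other positions listed with the counts were chromosome 9, 40712280 to 40721383, for *Hspa8*, chromosome 12, 110657039 to 110669162, for *Hsp90aa1*, and chromosome 8, 84334822 to 84339282, for *Dnajb1*. *Hsph1* and *Hspb1* were on chromosome 5, at 149537752 to 149559841 and 135916773 to 135918417. *Hspa1b* and *Hspa1a* were neighbours on chromosome 17, at 35175412 to 35178214 and 35188166 to 35191132, and *Hspa9* was on chromosome 18. The labels name mm39 and the study's methods GRCm38. None of the 10 genes had the start and end of the GENCODE annotation of GRCm38, while all 10 had the same chromosome and span length. The positions listed with the counts are thus not those of GRCm38. They cannot be compared directly with the GRCm38.p6 positions given for the promoters.

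**Figure D2:**
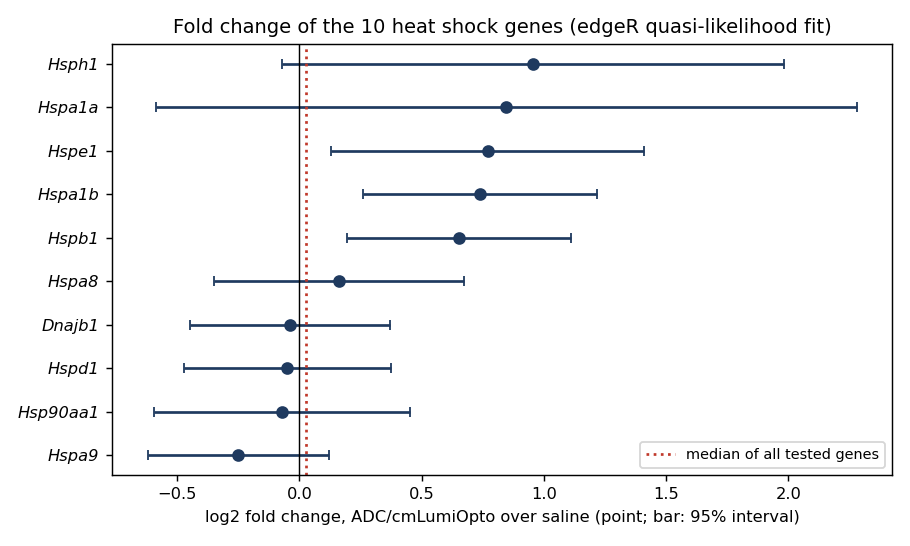
Log2 fold changes of the 10 heat shock genes, ADC/cmLumiOpto over saline, from edgeR's quasi-likelihood fit, with 95% intervals as bars and the median of all tested genes as a dotted line. The intervals of *Hspe1*, *Hspa1b* and *Hspb1* lie above 0, while those of the other 7 genes include 0.

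Across the 10 genes, 0 were below 0.05 after adjustment in edgeR's quasi-likelihood test, and 0% of all tested genes were. In edgeR's exact test and in DESeq2, 1 of the 10 was, *Hspa1b*. At an unadjusted p under 0.05, 3 genes were higher after treatment (*Hspa1b*, *Hspb1* and *Hspe1*) and none was lower. Of all tested genes 11% were higher and 23.2% differed in either direction at that level. In either direction the count was 2 without saline replicate 1 (19.1% of all genes tested there), 0 without saline replicate 2 (10.3%), 1 without ADC/cmLumiOpto replicate 1 (16.8%) and 5 without ADC/cmLumiOpto replicate 2 (23.2%). With the gene length trend removed it was 2 (19.8%), *Hspa1b* and *Hsph1*, and *Hspb1* and *Hspe1* were no longer among them. Both treated samples lay above both saline samples for 5 of the 10 genes and below them for 1, where 28.1% and 28.8% of all tested genes did so. Non-overlap is more frequent with a single treated sample. Without ADC/cmLumiOpto replicate 1, 5 of the 10 genes lay above saline and 5 below, beside 39.9% and 38.5% of all tested genes. Without replicate 2, 9 lay above, beside 40.9%. The median log2 fold change of the 10 genes was 0.41, beside 0.03 over all tested genes. It was -0.02 without ADC/cmLumiOpto replicate 1, 0.26 with the length trend removed and 0.20 when 10 counts were required in every sample, which leaves out *Hspa1a*.

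Ratios within a sample do not depend on the scaling between libraries. In all 4 ratios tested the treated samples lay above the saline samples. They were *Hspe1* over *Hspd1*, the inducible copies over *Hspa8*, *Hsph1* over *Hspa8* and *Hsp90aa1* over *Hsp90ab1*. *Hspe1*, the inducible copies and *Hsph1* were already described as higher in both treated samples, so their ratios partly restate those levels. Ratios of other gene pairs were not computed for comparison. *Hsph1* stood at 0.0137 and 0.0124 of *Hspa8* in saline and at 0.0283 and 0.0146 after treatment. The two-sided exact permutation test gave p = 0.33 for each ratio (also 0.33 after Benjamini-Hochberg adjustment over the 4), the smallest that 2 against 2 samples allow, so the design could not reach 0.05.

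For all of the 10 genes but *Hspa1a* and *Hspa1b*, the treated samples differed more from each other than the saline samples did. ADC/cmLumiOpto replicate 1 lay above replicate 2 in 10 of the 10 genes, whereas it did so in 48% of all tested genes. The median log2 ratio of replicate 1 over replicate 2 was 0.37 for the 10 genes and -0.02 for all tested genes. Between the saline samples the median of the 10 genes was 0.05. Between the treated samples the ratio was largest for *Hsph1* (1.44), *Hspe1* (0.79), *Hsp90aa1* (0.55) and *Hspa8* (0.49) on the log2 scale. For *Hspa1b* the ratio was 0.05 between the treated samples and 0.45 between the saline samples, and for *Hspa1a* 0.43 and 0.91. This count was made after the values had been seen and was not tested, and the samples of a group have no order.

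**Figure D3:**
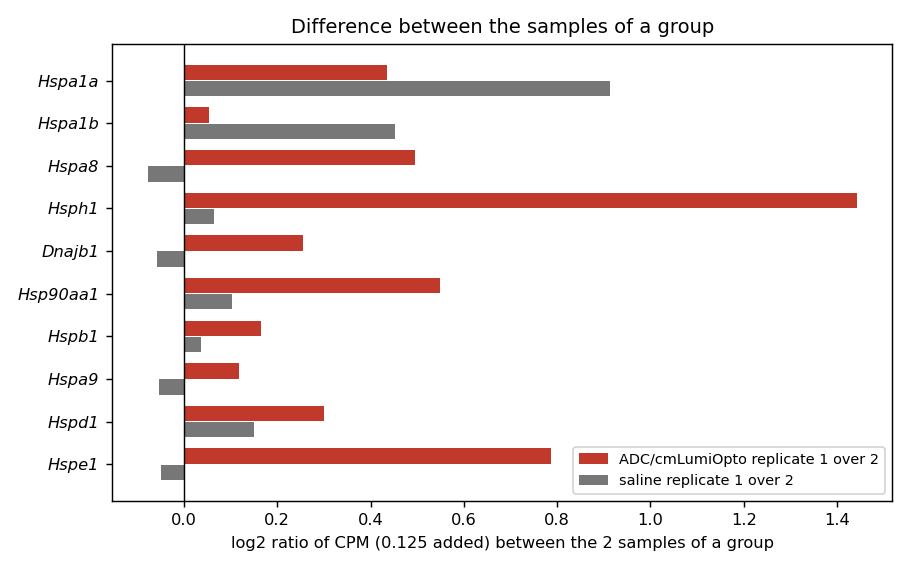
Log2 ratio of CPM, with 0.125 added, between the 2 samples of each group for the 10 heat shock genes, as bars from 0 (red, ADC/cmLumiOpto replicate 1 over replicate 2, and grey, saline replicate 1 over replicate 2). All 10 red bars are above 0, with *Hsph1* at 1.44, while the grey bars lie on both sides of 0.

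**Figure D4:**
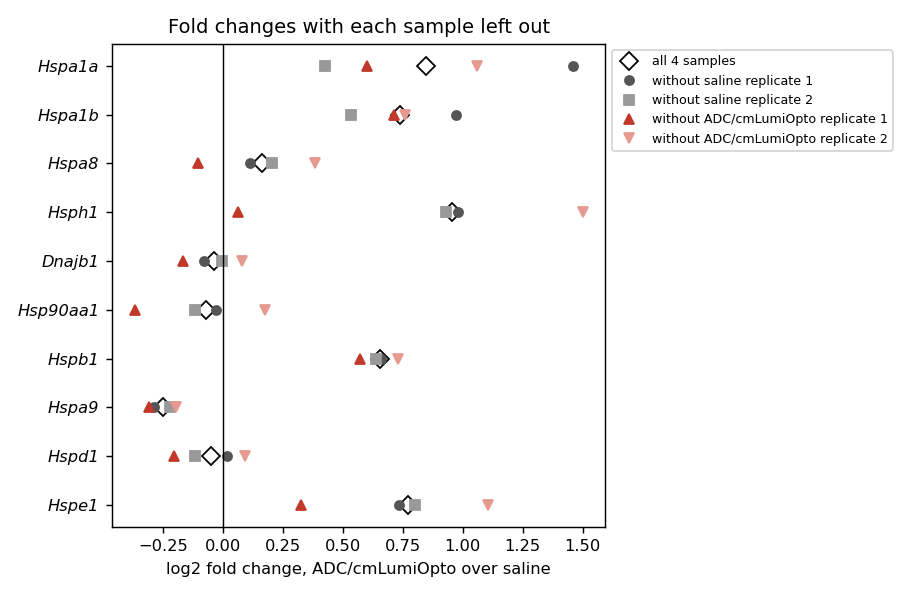
Log2 fold change of the 10 heat shock genes with all 4 samples (open diamonds) and after leaving out 1 sample (filled symbols). *Hspb1* and *Hspa9* stay near their estimates, while *Hsph1* lies between 0.06 and 1.50 depending on the treated sample left out.

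Compared per length, as RPKM (CPM divided by the length of the gene in kilobases), the 10 genes differed widely in level. In the saline samples the order of the means ran from *Hspa8* (443) through *Hsp90aa1* (199), *Hspd1* (161), *Hspa9* (97.5), *Hspe1* (80.4), *Dnajb1* (23.5), *Hspb1* (18.1), *Hspa1b* (12.3) and *Hsph1* (5.77) to *Hspa1a* (0.281). The values of neighbouring genes did not overlap between the 2 samples. In the treated samples *Hspe1* (137) stood above *Hspa9* (82.0), and *Hspb1* (28.4) stood above *Dnajb1* (22.9), the reverse of their order in saline. There the values of *Hsp90aa1* (190) overlapped those of *Hspd1* (156), those of *Hspd1* overlapped those of *Hspe1*, and those of *Dnajb1* overlapped those of *Hspa1b* (20.5).

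Lists of other chaperone genes, 7 in number, were set beside the 10. Of their 77 genes 76 were tested, and the median log2 fold change was 0.09. None passed the adjusted threshold of edgeR's quasi-likelihood test. After adjustment, edgeR's exact test called 2 of the 76 and DESeq2 called 4, beside 7.64% and 8.69% of all tested genes. *Pfdn5* and *Oma1* were called by both, and *Hscb* and *Dnajb2* by DESeq2 only. At an unadjusted p under 0.05 in the quasi-likelihood test, 8 were higher and 1 was lower. Of all tested genes 11% were higher and 23.2% differed in either direction at that level. Both treated samples lay above both saline samples for 25 of the 76 and below for 16, beside 28.1% and 28.8% of all tested genes. ADC/cmLumiOpto replicate 1 was above replicate 2 in 59 of the 76, beside 48% of all tested genes. The same shares stand beside the counts of each list below.

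The heat shock factors themselves were 4 genes, with a median of 0.38 and none below an unadjusted p of 0.05. *Hsf1*, the main heat shock factor, measured 26.6 and 28.9 CPM in saline and 35.5 and 32.4 CPM after treatment, with an adjusted p of 0.352 by edgeR's quasi-likelihood test. *Hsbp1*, which encodes a protein that binds and restrains this factor, measured 110 and 128 CPM in saline and 188 and 142 CPM after treatment (log2 fold change 0.47, adjusted p = 0.221). *Hsf4* stayed at 2.00 CPM or less in every sample, at a log2 fold change of 1.15 (adjusted p = 0.285). Among 15 other HSP70, HSP110 and HSP40 genes, 2 were higher at an unadjusted p under 0.05, the J-domain gene *Dnajb2* (0.82) and *Hspa12b* (0.66), and the median was 0.15. Among 11 genes of HSP90 and its co-chaperones, 2 were higher, *Cdc37l1* (0.46) and *Chordc1* (0.67), and the median was 0.18. *Chordc1* measured 46.9 and 44.8 CPM in saline and 93.9 and 52.7 CPM after treatment. Its levels had the pattern of *Hsph1*, with the excess mostly in ADC/cmLumiOpto replicate 1.

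The exchange and adaptor factors of HSP70 had a median of -0.12 over 8 genes, and 1 was lower at an unadjusted p under 0.05. This was *Bag3*, a co-chaperone that links HSP70 to small heat shock proteins, at 89.5 and 77.5 CPM in saline and 58.5 and 58.3 CPM after treatment (log2 fold change -0.52, adjusted p = 0.149 by edgeR's quasi-likelihood test). *Bag4* was at -0.45 (adjusted p = 0.222). Of the other small heat shock proteins 5 of 6 were tested, and *Hspb3* was not. Their median was -0.03, with *Cryab*, the lens crystallin that also serves as a chaperone in muscle, at 0.59 (adjusted p = 0.199) and *Hspb6* at -0.59 (adjusted p = 0.218).

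The TRiC chaperonin, which folds actin and tubulin, and prefoldin, which delivers them to TRiC, had a median of 0.03 over 14 genes. *Pfdn5*, a prefoldin subunit, was the gene with the smallest p of that list, at 113 and 116 CPM in saline and 246 and 206 CPM after treatment (log2 fold change 0.98, SE 0.17, adjusted p = 0.116 by edgeR's quasi-likelihood test). The next, *Pfdn6*, was at 0.34 (adjusted p = 0.323). In all 14 genes ADC/cmLumiOpto replicate 1 was above replicate 2, beside 48% of all tested genes. Both treated samples lay above saline for 3 and below for 2, beside 28.1% and 28.8% of all tested genes.

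The mitochondrial chaperones and proteases, the partners of *Hspa9*, *Hspd1* and *Hspe1*, numbered 19, with a median of 0.14. Both treated samples lay above both saline samples for 10 of them and below for 2, beside 28.1% and 28.8% of all tested genes. At an unadjusted p under 0.05, 2 were higher and none was lower, where 11% of all tested genes were higher. *Oma1*, a stress-activated protease of the inner membrane, measured 8.88 and 8.16 CPM in saline and 18.1 and 15.6 CPM after treatment (log2 fold change 0.98, adjusted p = 0.123 by edgeR's quasi-likelihood test). *Hscb*, a J-domain protein of iron-sulfur cluster assembly, measured 11.6 and 9.98 CPM in saline and 23.5 and 17.8 CPM after treatment (log2 fold change 0.93, adjusted p = 0.126). *Grpel1*, the exchange factor of mortalin, was at 56.5 and 62.1 CPM in saline and 92.2 and 64.3 CPM after treatment (adjusted p = 0.304).

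Immediate early genes, which many stresses switch on within minutes, were set beside these lists. ADC/cmLumiOpto replicate 1 was above replicate 2 in 2 of the 13, beside 48% of all tested genes. The median log2 ratio between these samples was -0.40, and the cause of this order was not tested. Their median log2 fold change was -0.02. *Atf3*, a stress-induced transcription factor, was at 1.07 (adjusted p = 0.124) and *Fosb* at -1.40 (adjusted p = 0.133), both by edgeR's quasi-likelihood test. After adjustment, edgeR's exact test and DESeq2 each called 2 of the 13 genes, beside 7.64% and 8.69% of all tested genes.

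**Figure D5:**
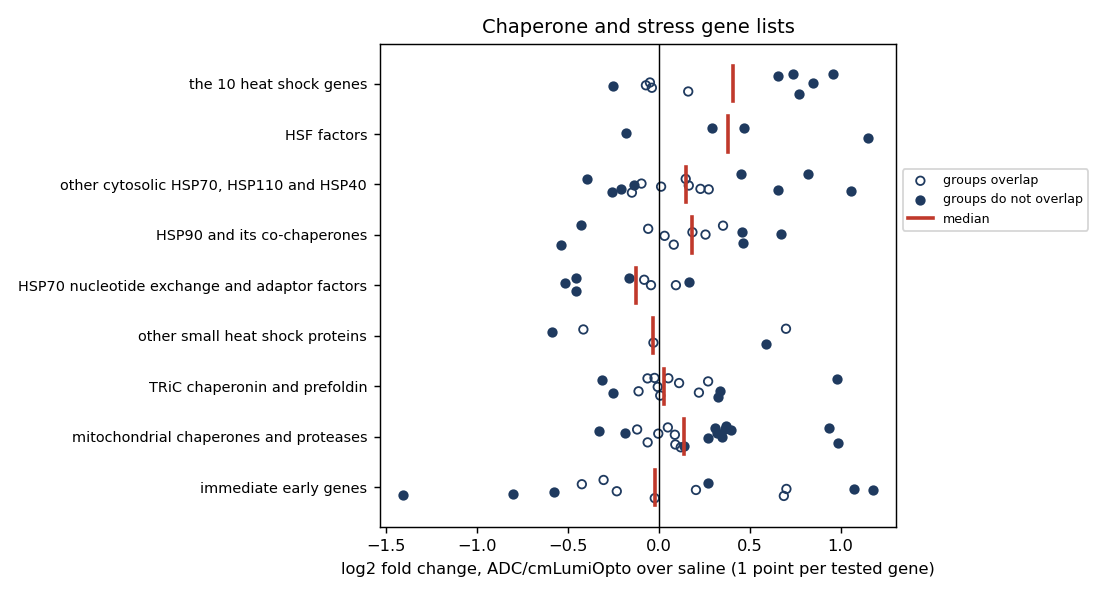
Log2 fold change of each tested gene in the 10 heat shock genes, 7 lists of other chaperone genes and the immediate early genes, ADC/cmLumiOpto over saline. Filled points are genes whose groups do not overlap, open points those that do, and red lines are medians, from 0.41 for the 10 heat shock genes to -0.12 for the HSP70 exchange and adaptor factors.

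Levels of several cell type markers differed between the groups beside these results. No marker, and no gene of the table, passed the adjusted threshold of edgeR's quasi-likelihood test. After adjustment, edgeR's exact test called 7 of 8 alveolar, 3 of 7 tested leukocyte, 3 of 5 fibroblast and 2 of 8 proliferation markers. DESeq2 called 3, 2, 3 and 3 of these. Of 5 endothelial markers the tests called 1 and 2, of 6 tested muscle markers 1 and 1, and of 5 epithelial markers 0 and 0. Of all tested genes they called 7.64% and 8.69%. At an unadjusted p under 0.05, 11% of all tested genes were higher and 23.2% differed in either direction. The 5 epithelial markers listed for carcinoma were present in every sample. Epithelial cells of the lung itself can also carry them, so their sum does not measure tumor content. The sum was between 2584 and 2978 CPM in saline and between 2450 and 2536 CPM after treatment. Of these 5 markers, 0 were below an unadjusted p of 0.05. All 8 alveolar markers were higher at that level, with a summed level of 426 to 2703 CPM in saline and 7847 to 11754 CPM after treatment. Of 7 tested leukocyte markers 4 were higher (1821 to 3087 and 5694 to 9864 CPM), and of 5 endothelial markers 2 were higher (359 to 458 and 451 to 675 CPM). All 5 fibroblast markers (2466 to 3669 and 943 to 1082 CPM) and 5 of 8 proliferation markers (1140 to 1158 and 682 to 768 CPM) were lower at that level. Of 6 tested muscle markers 1 was lower (260 to 286 and 208 to 211 CPM). No marker was at 0 in all samples. The saline samples also differed from each other in the alveolar sum. Between the treated samples the alveolar sum was higher in replicate 1 and the leukocyte sum in replicate 2. The part of these cell types in the levels of the 10 heat shock genes was not tested.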

How the data were processed

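RNA sequencing of 2 saline and 2 ADC/cmLumiOpto samples was analyzed, grouped by the sample titles. What the authors deposited is a table of 56748 genes with the whole-number count of reads of each gene in each sample, not normalized. The labels name HISAT2, HISAT, TopHat2 and mm39, and the study's methods name HISAT2 and GRCm38. The counting program and its use of strand are not given in the sources used here. The study describes more samples per group than the 2 analysed here.

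The count table was fitted with edgeR 4.0.16 under R 4.3.3. Low counts were removed by filterByExpr (minimum count 10, minimum total 15), normalized by TMM (factors 0.973 to 1.04) and compared by glmQLFit and glmQLFTest with a prior count of 0.125, Benjamini-Hochberg adjustment over all 15320 tested genes and a threshold of 0.05. Standard errors were derived from the log2 fold change and its F statistic. RPKM used the gene length listed with the counts. The 4 libraries held 15263375 to 19675436 counts, and the floor was 3 counts. Ratios were tested by exact permutation. Promoter sequences came from RefSeq (GRCm38.p6) and transcript stretches of 100 bases from GENCODE M21.

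Alternatives were DESeq2 1.42.0, the exact test, other scalings and filters, a block for the replicate number, removal of a gene length trend (lowess span 0.3), each sample left out in turn and *Hspa1a* and *Hspa1b* summed. Summing related copies was added after seeing the data. With a sample left out, the lone sample of its group is assumed to vary like the other group. Of these steps, only the quasi-likelihood test, the exact test and DESeq2 with the default filter were first tested on simulated counts with 200 altered genes. The simulated log2 change was 2, larger than that of any of the 10 genes. The simulated spread between samples was smaller than the one fitted here, so the simulation does not give the power of the present comparison. All 10 genes are named, and from each list the 2 genes with the smallest p, while *Hsf1*, *Grpel1* and *Hsp90ab1* were chosen after their values were seen. A related gene is not reported here. The 10 genes and the lists were chosen with earlier results of these data known.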

Additional observations from a re-analysis of the deposited data

How the results depend on the processing

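Of 138 values of single genes under the alternatives, 123 kept their direction and their side of the adjusted threshold, 10 turned direction and 5 newly passed the threshold. The number of the 10 genes past the adjusted threshold was 0, and it was 1 in DESeq2 and 1 in the exact test (*Hspa1b*), and 3 with no filter beyond 1 count (*Hspa1b*, *Hsph1* and *Hspe1*). Over all genes the calls were 1332 in DESeq2, 1170 in the exact test and 2259 with no filter. They numbered 607 under the replicate block, 218 without saline replicate 1, 10 without saline replicate 2 and 5 without ADC/cmLumiOpto replicate 1. At an unadjusted p under 0.05 the count of the 10 genes ranged from 0 to 5 with a sample left out, beside 10.3% to 23.2% of all genes tested. Their median log2 fold change then ranged from -0.021 to 0.56. The number without overlap ranged from 6 to 10, where 37% to 40.9% of all genes lay above and 37.7% to 40.7% below. With *Hspa1a* and *Hspa1b* summed the median was 0.16 over 9 genes. It was 0.20 over 9 genes with 10 counts required in every sample and 0.26 with the length trend removed. *Dnajb1* turned to 0.0054 without TMM, to 0.049 with upper-quartile scaling and to 0.00087 with 10 counts required in every sample. *Hsp90aa1* (0.018) and *Hspd1* (0.038) turned with upper-quartile scaling, which moved the median of all genes from 0.03 to 0.11. The unadjusted calls over all genes were 1690 higher and 1863 lower, against 2146 and 1398 with that scaling and 1892 and 1508 without TMM. With a sample left out, *Hspd1* ranged from -0.21 to 0.089, *Hspa8* from -0.10 to 0.38, *Hsp90aa1* from -0.37 to 0.17 and *Dnajb1* from -0.17 to 0.079. The cause of these shifts was not tested.

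The groups share replicate numbers. Across all tested genes, the deviations of same-numbered samples from their group means correlated at 0.0985, so the numbers were not taken as a pairing. Under the replicate block the median of the 10 genes was 0.40, 4 of them had an unadjusted p under 0.05, beside 25.1% of all genes, and 0 passed the adjusted threshold. With 2 samples per group the smallest exact p is 0.33, and *Hspa1a* rests on 8 to 31 counts.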
